A study of Mus musculus with 10 samples.

Results

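Chromatin accessibility was examined at 49 Wnt pathway genes: 19 genes for Wnt ligands, 12 for receptors (10 Frizzled genes with *Lrp5* and *Lrp6*), 8 for secreted antagonists (*Sfrp1*, *Sfrp2*, *Sfrp4*, *Sfrp5*, *Frzb*, *Dkk1*, *Dkk2* and *Dkk3*), 6 for R-spondins and their Lgr receptors (*Rspo1* to *Rspo4*, *Lgr4* and *Lgr5*), and 4 for intracellular effectors and targets (*Axin2*, *Lef1*, *Tcf7* and *Ctnnb1*). The genes were chosen by function, and all 49 were found among 21911 protein-coding genes of the mouse annotation. Peaks were assigned to a gene when their summit lay inside it or within 25 kb of it on mm10, and to its promoter when within 1 kb of a transcription start site. Of 184764 accessible regions in the whole dataset, each reaching 250 bp to either side of a centre, 666 lay near these genes, 101 of them at their promoters.

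The assay was bulk ATAC-seq, in which Tn5 transposase inserts adapters into open chromatin, on cells sorted from pooled embryonic mouse hearts. All embryos were Rosa26tdTomato;Wt1CreERT2/+ on C57BL/6J, and tamoxifen had been given to the mothers by oral gavage, so tdTomato marks cells that expressed *Wt1* at labelling and the descendants of those cells. Epicardium was sorted as CD31- tdTomato+ PDPN+ cells at E11.5 (3 libraries of 6 hearts each) and at E17.5 (3 libraries of 4 hearts each). Epicardium-derived cells (EPDCs), which have left the epithelial layer, were sorted as CD31- tdTomato+ PDPN- cells at E12.5 (1 library) and E13.5 (2 libraries, of which 1 merges technical replicates). The number of hearts behind each EPDC library was not used here. The label is limited to cells with *Wt1* promoter activity at the time of tamoxifen. Since the samples are bulk, fewer cells with an open region and less opening per cell cannot be told apart.

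The lists held between 94909 and 142743 summits per library, and the median summit carried between 34 and 82 fragments. The EPDC lists, and not the epicardial lists, held intervals on the mitochondrial genome and unplaced scaffolds (217 in all). In comparisons of EPDCs with epicardium, the cell population, the embryonic day and the processing of the lists cannot be told apart. EPDC E13.5 sample 2 was the deepest library (genome background of 10.9 fragments per position) and E17.5 replicate 1 the shallowest (2.07). The labels were checked at marker promoters: of 12 epicardial marker promoters, 9 were lower and 0 higher in EPDCs than in epicardium, and of 12 mesenchymal ones 5 were higher and 2 lower. Between the stages, 3 epicardial marker promoters were higher at E17.5 (*Msln*, *Krt8* and *Krt18*) and 2 lower (*Wt1* and *Bnc1*), while 2 mesenchymal ones were higher (*Postn*, 46.1 points, and *Col1a2*, 18.9 points) and 3 lower (*Rgs5*, -47.1 points, *Col1a1*, -25.8 points, and *Dcn*, -5.98 points). The promoter of *Upk3b*, an epicardial marker, stood at a mean rank percentile (from 0 for no peak to 100 for the strongest, explained below) of 98.7 at E11.5, 97.5 at E17.5 and 47.5 in EPDCs, while *Wt1* itself stood at 95.6 in EPDCs. The endothelial markers *Pecam1* and *Cdh5* and the blood markers *Ptprc* and *Gata1* had no promoter region in any library. Of the cardiomyocyte promoters with a region, 2 of 9 were higher and 2 lower in EPDCs, and likewise 2 and 2 at E17.5. Of the endothelial ones 1 of 6 was lower at E17.5 (*Erg*, -12.99 points) and 1 higher in EPDCs. Of the 4 blood ones, 2 were higher at E17.5 (*Tal1*, 16.6 points, and *Cd68*, 19.9 points) and 1 was lower (*Epor*, -9.57 points), while 1 was higher and 1 lower in EPDCs. Summed over a list, the cardiomyocyte percentiles ran from 338 to 371 at E11.5, 305 to 360 at E17.5 and 315 to 359 in EPDCs, and the epicardial ones from 909 to 935, 1006 to 1042 and 577 to 732. The mesenchymal sums ran from 829 to 863, 815 to 897 and 924 to 1009, with the EPDC libraries above the rest. The endothelial sums ran from 425 to 440, 362 to 407 and 421 to 447, with the E17.5 libraries below the rest. The blood sums ran from 274 to 291, 296 to 321 and 210 to 258, and no groups overlapped. The part of other cell types in the results was not tested.

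Wnt ligands are secreted lipid-modified proteins that bind a Frizzled receptor together with the co-receptor Lrp5 or Lrp6. In the canonical branch this stabilizes beta-catenin, the product of *Ctnnb1*, which enters the nucleus and acts with TCF/LEF factors such as Tcf7 and Lef1 on targets that include *Axin2*, itself a negative regulator. Sfrp proteins and Frzb bind Wnt ligands outside the cell, Dkk1 blocks Lrp co-receptors, and R-spondins bound to Lgr receptors prolong the life of Frizzled receptors at the membrane. In the developing heart, Wnt and R-spondin signals take part in epicardial growth, in the epithelial-to-mesenchymal transition of epicardial cells and in coronary vessel formation.

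The DNA under the regions that differed most is shown first, since the comparisons below turn on them. For each comparison and direction, the region of largest difference outside any start site of a protein-coding gene is given, as the 201 bp around its centre on the plus strand of GRCm38.p6 (the build of mm10). Capitals mark letters searched on both strands: CTTTGAT and CTTTGAA for TCF/LEF, TGANTCA for AP-1, GGAATG for TEAD, AGATAA for GATA and AGGTGTGA for T-box factors, with capitals running together where matches overlap.
Axin2 +10.9 kb, higher at E17.5, chr11:108933945-108934145: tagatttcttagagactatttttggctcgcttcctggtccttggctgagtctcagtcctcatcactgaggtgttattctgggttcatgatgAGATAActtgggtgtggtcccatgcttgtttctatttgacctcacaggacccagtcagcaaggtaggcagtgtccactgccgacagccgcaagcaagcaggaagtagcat
Rspo1 -21.0 kb, lower at E17.5, chr4:124965291-124965491: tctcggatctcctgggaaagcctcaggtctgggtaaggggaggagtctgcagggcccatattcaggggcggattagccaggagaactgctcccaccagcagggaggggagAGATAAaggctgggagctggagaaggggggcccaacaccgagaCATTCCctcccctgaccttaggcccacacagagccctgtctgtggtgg
Lrp5 +43.8 kb, higher in EPDCs, chr19:3642634-3642834: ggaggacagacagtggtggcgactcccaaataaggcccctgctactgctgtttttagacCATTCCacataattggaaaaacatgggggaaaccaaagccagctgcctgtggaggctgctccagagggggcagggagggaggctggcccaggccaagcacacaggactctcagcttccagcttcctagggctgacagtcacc
Fzd10 -21.4 kb, lower in EPDCs, chr5:128579385-128579585: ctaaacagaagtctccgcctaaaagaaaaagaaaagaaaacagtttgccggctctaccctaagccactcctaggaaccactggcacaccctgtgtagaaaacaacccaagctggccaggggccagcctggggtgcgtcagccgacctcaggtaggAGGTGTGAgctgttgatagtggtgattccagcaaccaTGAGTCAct

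These windows held 1 GATA match at *Axin2*, 1 TEAD and 1 GATA match at *Rspo1*, 1 TEAD match at *Lrp5*, and 1 AP-1 and 1 T-box match at *Fzd10*. None of the 4 windows held the TCF/LEF letters. Among all regions, the central 201 bp held the TCF/LEF letters in 6.45%, AP-1 in 15.9%, TEAD in 19.2%, GATA in 29531 of the 184764 and T-box in 0.746%. A match describes the letters and no more.

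Further stretches belong to the strongest peak outside any such start site and to the promoter that differed most between the stages. The intronic *Wnt6* region 1.4 kb inside the gene had the highest mean of all member regions that lie outside every start site of a protein-coding gene, and is printed as the open end of the range. The bases at *Sfrp5* are the 200 upstream of its RefSeq start site, read 5' to 3' on its own minus strand.
Wnt6 +1.4 kb, open in all libraries, chr1:74773171-74773371: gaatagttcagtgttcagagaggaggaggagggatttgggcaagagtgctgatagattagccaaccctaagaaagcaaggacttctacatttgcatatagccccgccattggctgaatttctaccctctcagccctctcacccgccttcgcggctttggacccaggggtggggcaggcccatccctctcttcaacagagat
Sfrp5 promoter, lower at E17.5, chr19:42202253-42202452: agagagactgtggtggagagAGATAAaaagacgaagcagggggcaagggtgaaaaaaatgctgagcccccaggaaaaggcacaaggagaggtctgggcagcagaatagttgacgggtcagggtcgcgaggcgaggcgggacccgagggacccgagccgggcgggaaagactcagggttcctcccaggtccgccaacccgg

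The *Sfrp5* stretch held 1 GATA match, and the *Wnt6* stretch held none of the letters searched. The *Sfrp5* promoter region that was lower at E17.5 spans chr19:42201926-42202426 and covers only part of the stretch. The GATA match lies just outside that region.

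The value given for a region is its rank percentile: the strongest summit of the region was ranked by −log10 p among all summits of that library, so that 100 is the strongest peak and 0 means that no peak was called. A 0 says that the peak caller's threshold was not reached, not that the region was closed. Differences are in percentile points, and regions were called with limma across all 184764 regions at an adjusted p under 0.05 (Benjamini-Hochberg), with standard errors (SE) from the same fit. The p-values measure the spread between these libraries, which come from pooled hearts. A region with peaks on only 1 side of a comparison entered the set through that side and had to differ, and the other side stands at the caller's threshold, so its difference is given as a description, with no p-value.

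**Figure D1:**
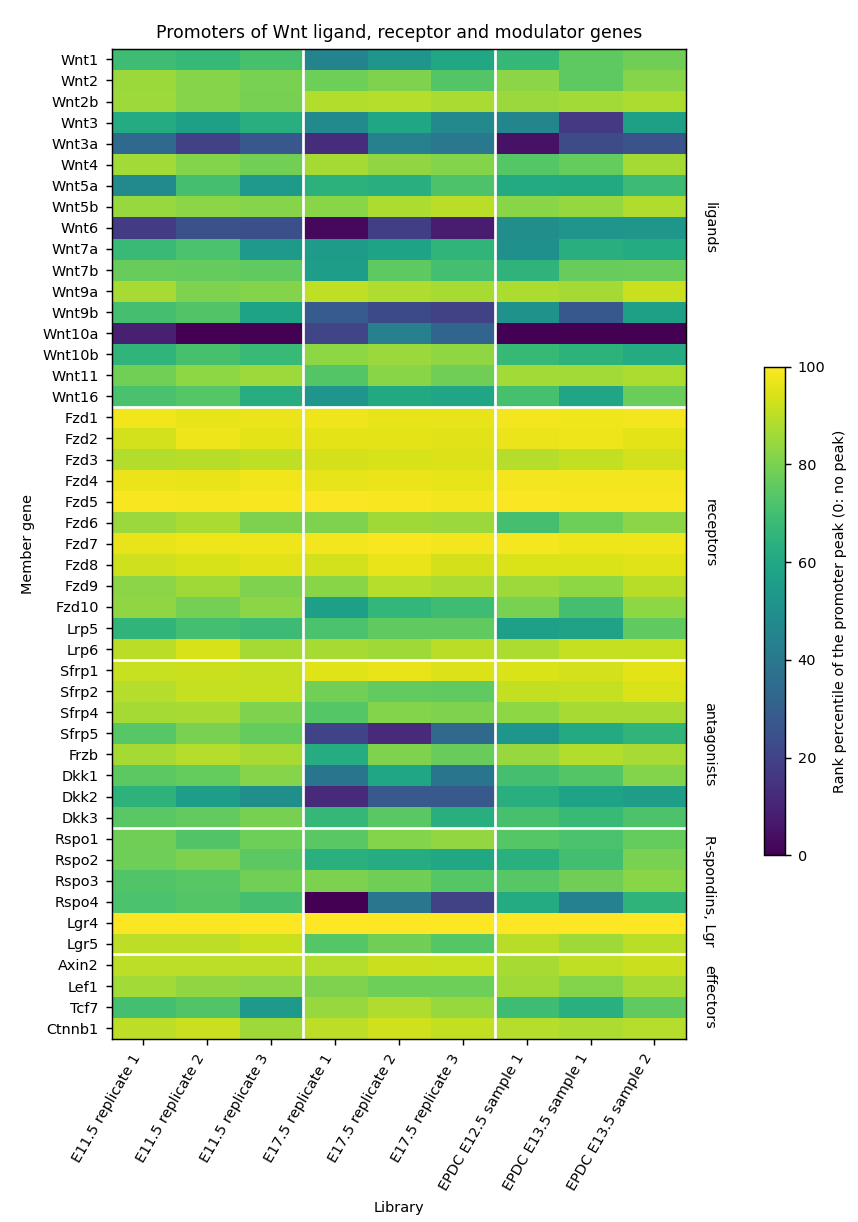
Rank percentile of the promoter peak of the 47 member genes with a promoter region (rows, grouped by role) in each of the 9 libraries (columns), with white lines between groups. Receptor promoters are bright in every library, from 56.3 for *Fzd10* upwards, while *Sfrp5*, *Dkk2* and *Rspo4* darken at E17.5 and *Wnt6* brightens in EPDCs.

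Nearly all of these promoters were open in every population. Of 49 genes, 47 had a promoter region and 45 had it called in all 9 libraries, the exceptions being *Rspo4* (8 libraries) and *Wnt10a* (4 libraries). That is 95.74% of the member promoters, beside 87.19% of the 15677 promoters of protein-coding genes picked in the same way. *Wnt8a* and *Wnt8b* had no promoter region in any library. The highest member promoter was that of *Lgr4*, an R-spondin receptor, which lay between 99.5 and 99.9 in the 9 libraries. The promoters of *Fzd1*, *Fzd2*, *Fzd4*, *Fzd5* and *Fzd7*, genes for Frizzled receptors, lay above the 92nd percentile throughout, from 93.0 for *Fzd2* in E11.5 replicate 1 to 99.3 for *Fzd5*. These receptor promoters showed no called difference in either comparison. The *Ctnnb1* promoter lay between 85.6 and 92.8, and that of *Axin2* between 86.8 and 92.1, also without a call.

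The first comparison asks how accessibility at these genes changed as the epicardium matured from E11.5 to E17.5. At promoters, 6 genes were higher at E17.5 (*Wnt2b*, *Wnt10a*, *Wnt10b*, *Fzd3*, *Sfrp1* and *Tcf7*) and 11 were lower (*Wnt1*, *Wnt9b*, *Fzd10*, *Sfrp2*, *Sfrp5*, *Frzb*, *Dkk1*, *Dkk2*, *Rspo2*, *Rspo4* and *Lgr5*), while 30 did not pass the test. That is 12.8% and 23.4% of the 47 member promoters, against 3.51% higher and 13.1% lower among 15677 protein-coding genes whose promoter region was picked in the same way. Over all promoter regions rather than 1 per gene, 10.9% of 101 were higher and 16.8% lower at members, against 5.16% and 12.3% of 24397, so the share of lower member promoters was nearer to the background. The median difference of the member promoters was -0.40 points and that of the promoters of all genes -0.44.

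Secreted antagonists made up 5 of the 11 promoters that were lower. *Sfrp5*, which encodes a Wnt-binding protein of the Sfrp family, stood at 73.9, 79.9 and 76.3 in the E11.5 replicates, at 20.3, 12.4 and 34.5 in the E17.5 replicates, and at 52.6, 61.0 and 65.4 in the EPDC libraries. Its E17.5 values lay below all others without overlap. The difference between stages was -54.3 points (SE 6.29, limma adjusted p = 0.000339), and 85, 102 and 80 fragments at its E11.5 summits compared with 15, 17 and 27 at E17.5. *Dkk1*, for an Lrp antagonist, gave 74.9, 76.4 and 81.7 at E11.5 but 39.0, 59.2 and 39.0 at E17.5. *Dkk2*, of the same family, gave 64.5, 56.2 and 49.7 at E11.5 but 12.3, 28.1 and 27.9 at E17.5. In neither gene did the stages overlap, and the differences were -31.9 points (SE 5.81, limma adjusted p = 0.00362) for *Dkk1* and -34.1 (SE 6.20, limma adjusted p = 0.00361) for *Dkk2*. Ranked by fold enrichment, both *Dkk* promoters kept the direction but lost the call.

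*Sfrp2* was high at both stages and lower at E17.5, with 88.8, 91.2 and 91.4 at E11.5 against 78.9, 76.1 and 75.7 (difference -13.6 points, SE 1.48, limma adjusted p = 0.000252). *Frzb*, whose product is also named Sfrp3, differed by -14.3 points (SE 4.20, limma adjusted p = 0.0345), a call that was lost in 10 of 18 alternatives. Without E17.5 replicate 1, the shallowest library, the difference was -8.72 points. *Sfrp1* went the other way, from 91.4, 91.8 and 91.3 at E11.5 to 95.0, 96.5 and 94.7 at E17.5 (3.88 points higher, SE 0.934, limma adjusted p = 0.0139). *Sfrp4* and *Dkk3* did not pass the test, with means of 84.8 ± 3.40 and 78.5 ± 4.27 (SD, n = 3) at E11.5 and E17.5 for *Sfrp4* and of 76.6 ± 2.60 and 67.9 ± 5.88 for *Dkk3*.

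In the R-spondin branch, 3 of 6 promoters were lower. *Rspo4* stood at 71.7, 73.3 and 70.4 at E11.5, and at 0, 39.2 and 19.3 at E17.5, where replicate 1, the shallowest library, had no peak. The difference was -52.3 points (SE 9.72, limma adjusted p = 0.00402), and -42.5 at the least when 1 library was left out. *Rspo2* stood at 77.8, 80.3 and 74.8 at E11.5, compared with 63.5, 61.9 and 59.97 at E17.5 (difference -15.9 points, SE 3.95, limma adjusted p = 0.0168). This call was lost in 5 of 18 alternatives, among them both log2 scalings and equal numbers of top summits per library. *Lgr5*, a receptor for R-spondins, stood at 89.96, 90.1 and 91.6 at E11.5, compared with 73.7, 78.3 and 73.7 at E17.5, without overlap (difference -15.3 points, SE 1.73, limma adjusted p = 0.000300). *Rspo1* and *Rspo3* did not pass the test at their promoters.

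Ligand promoters went in both directions. *Wnt9b* stood at 70.5, 72.9 and 58.0 at E11.5, compared with 29.2, 22.6 and 19.3 at E17.5 (difference -43.4 points, SE 8.19, limma adjusted p = 0.00432). *Wnt10a* had a peak in 1 of 3 E11.5 libraries, at 8.62, in all E17.5 libraries, at 20.996, 43.7 and 32.5, and in none of the EPDC libraries (29.5 points higher at E17.5, SE 6.30, limma adjusted p = 0.00796). *Wnt10b* stood at 65.3, 70.8 and 67.4 at E11.5, compared with 83.0, 85.0 and 83.3 at E17.5, without overlap (15.9 points higher, SE 2.38, limma adjusted p = 0.00121). Ranked by fold enrichment this call was lost. *Wnt2b* was 6.06 points higher, with 85.3, 81.7 and 79.4 at E11.5 before 88.3, 89.01 and 87.3 at E17.5 (SE 1.63, limma adjusted p = 0.0234, lost in 4 of 18 alternatives). Several ligand genes lie side by side. *Wnt10b* was called higher and *Wnt1*, whose promoter region lies 13.3 kb away, was called lower, at 68.8, 67.0 and 70.9 against 45.0, 52.4 and 59.8 (difference -16.5 points, SE 4.59, limma adjusted p = 0.0271). The *Wnt1* call was lost in 8 of 18 alternatives. *Wnt9b* lies 24.3 kb from *Wnt3*, which did not pass the test, with means of 60.5 ± 3.41 and 51.4 ± 6.66 (SD, n = 3).

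Among receptors and effectors, 3 promoters were called. *Fzd10* stood at 83.4, 79.1 and 82.7 at E11.5, compared with 56.3, 66.1 and 68.9 at E17.5 (difference -18.0 points, SE 4.10, limma adjusted p = 0.0111). *Fzd3*, already at 89.4 ± 1.06 at E11.5 (SD, n = 3), was 4.72 points higher at E17.5 (SE 1.22, limma adjusted p = 0.0195), a call lost without E11.5 replicate 1, E11.5 replicate 2 or E17.5 replicate 3. *Tcf7*, for a TCF/LEF factor, stood at 70.3, 72.9 and 54.0 at E11.5, compared with 84.7, 88.0 and 84.4 at E17.5, 20.003 points higher (SE 5.05, limma adjusted p = 0.0177). The other TCF/LEF gene among the members, *Lef1*, was not called, with means of 84.1 ± 1.72 and 78.7 ± 1.53 (SD, n = 3). The *Fzd10* call was lost when peaks were ranked by fold enrichment and with a log2 score centred on shared regions, and the *Tcf7* call when E17.5 replicate 2 was left out (14.1 to 23.6 points over all libraries left out in turn).

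Over all 666 regions near member genes, 67 were higher and 127 lower at E17.5. This is 10.1% and 19.1%, against 7.25% higher and 20.1% lower among all regions, and the median difference was -2.73 points against -2.03. The balance of directions depends on how the libraries were scaled. When equal numbers of top summits were taken from each library, the calls were 91 higher and 91 lower of 539 member regions, and the share of higher calls moved from 34.5% to an even split at members and from 26.5% to 45.8% over all regions, where 19812 of 147117 were then higher and 23489 lower. By role, near secreted antagonists 3 of 91 regions were higher and 24 lower (7 and 15 of 80 with equal numbers, where the share of lower calls is nearer to that of all regions), near R-spondin and Lgr genes 7 of 73 were higher and 24 lower (7 and 20 of 60), and near receptors 12 of 161 were higher and 25 lower (17 and 21 of 123). Near ligands 38 of 268 were higher and 47 lower, which turned to 50 and 31 of 221 with equal numbers. Near effectors 7 of 73 went each way, and 10 and 4 of 55 with equal numbers. The median differences were -8.72 points for antagonists, -7.06 for R-spondin and Lgr genes, -0.81 for receptors, -1.09 for ligands and -3.49 for effectors.

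**Figure D2:**
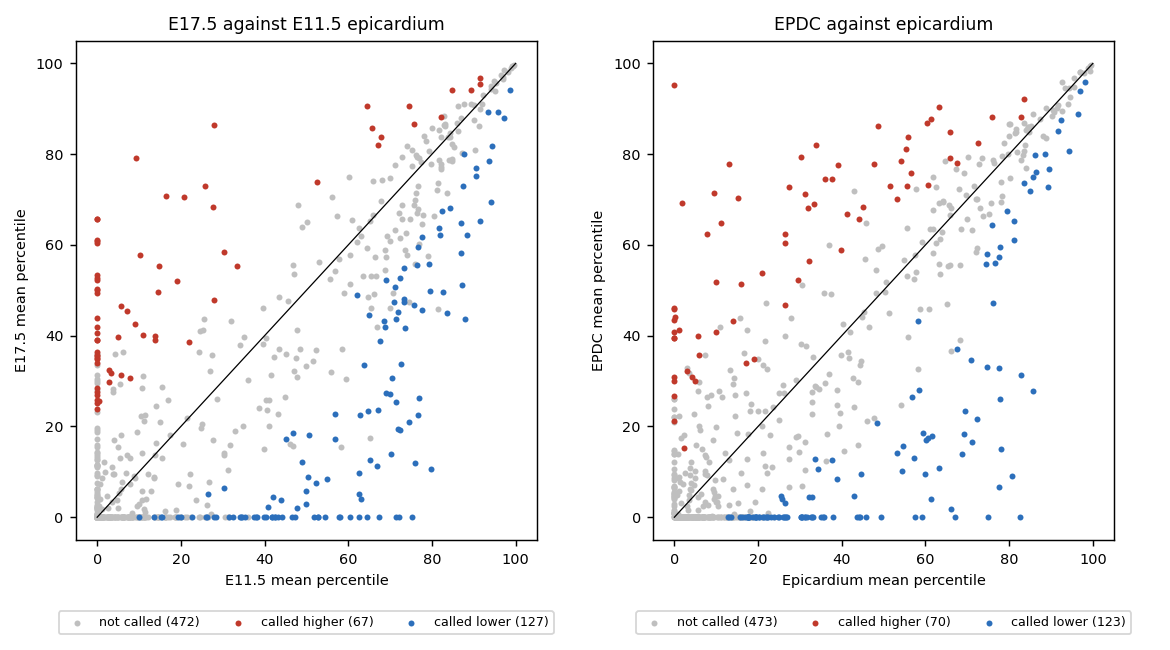
Group means of the rank percentile for the 666 regions near member genes, at E17.5 against E11.5 (left) and in EPDCs against the mean of both epicardial stages (right), with the diagonal of equality. Each point is a region: called higher in red (67 and 70), called lower in blue (127 and 123), not called in grey, and points on an axis had no peak in that group.

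Away from promoters, several regions near members of the canonical pathway and near ligands were peaks at E17.5 and seldom or never at E11.5. The region of largest gain, whose sequence is printed above, lies in an *Axin2* intron (chr11:108933795-108934295). It stood at 27.8, 0 and 0 at E11.5, at 72.0, 84.8 and 80.3 at E17.5, and at 0 in all EPDC libraries. The E17.5 summits carried 42, 114 and 86 fragments. The difference was 69.8 points (SE 8.04, limma adjusted p = 0.000328). A region 5.5 kb upstream of *Wnt4* (chr4:137271780-137272280) had no peak at E11.5 or in EPDCs and stood at 64.2, 75.2 and 57.7 at E17.5 (65.7 points higher).

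No peak in any E11.5 library and a peak in each E17.5 library was seen at 33 member regions, or 4.95%, beside 4.38% of all regions. Those of largest difference include introns of *Lrp5* (chr19:3666994-3667494, 65.7 points), *Wnt9a* (chr11:59312953-59313453, 61.1 points), *Wnt7a* (chr6:91372978-91373478, 61.0 points) and *Wnt3a* (chr11:59282854-59283354, 52.8 points), and intergenic DNA near *Fzd5* (chr1:64747498-64747998, 60.5 points) and *Wnt11* (chr7:98879035-98879535, 53.5 points). The *Wnt3a* region had peaks in both E13.5 EPDC libraries as well, and its call was lost in 8 of 18 alternatives. A *Tcf7* intron (chr11:52260830-52261330) had peaks in 2 of 3 E11.5 libraries, at 34.6 and 49.5, and stood at 87.4, 86.3 and 85.4 at E17.5 (58.3 points higher, SE 11.8, limma adjusted p = 0.00615). A *Wnt5b* intron (chr6:119493853-119494353) was 54.3 points higher.

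R-spondin and Lgr genes held 24 of the 127 member regions that were lower at E17.5, and 73 of all 666. The intergenic region 21 kb upstream of *Rspo1* (chr4:124965141-124965641), printed above, stood at 71.3, 77.1 and 77.6 at E11.5 and had no peak in any E17.5 library. In EPDCs it stood at 31.1, 0 and 6.69. The difference between stages was -75.3 points, and the E11.5 summits carried 59, 77 and 68 fragments. A pair of *Lgr5* introns 66.9 kb and 56.5 kb from the start site (chr10:115520304-115520804 and chr10:115530697-115531197) stood at 64.0, 71.7 and 80.5 and at 66.2, 69.7 and 66.2 at E11.5. Neither had a peak at E17.5, and they differed by -72.1 and -67.3 points. A *Rspo2* intron (chr15:43054665-43055165) stood at 70.8, 77.0 and 79.8 at E11.5, compared with 10.8, 24.9 and 0 at E17.5 (difference -64.0 points, SE 7.83, limma adjusted p = 0.000449).

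No E17.5 peak was present either in lower regions near *Wnt2* (chr6:18052925-18053425, in an intron of the neighbouring gene *Asz1*, -71.4 points), *Wnt9b* (chr11:103758675-103759175, -58.0 points) and *Lrp6* (chr6:134494958-134495458, -64.5 points). The *Wnt2* region had no peak in EPDCs either. A second *Lrp6* intron lies 29.0 kb into the gene (chr6:134537630-134538130). It stood at 52.4, 64.1 and 65.1 at E11.5, and at 84.1, 77.4 and 76.9 in EPDCs. No E17.5 library had a peak there, and the difference between stages was -60.5 points.

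**Figure D3:**
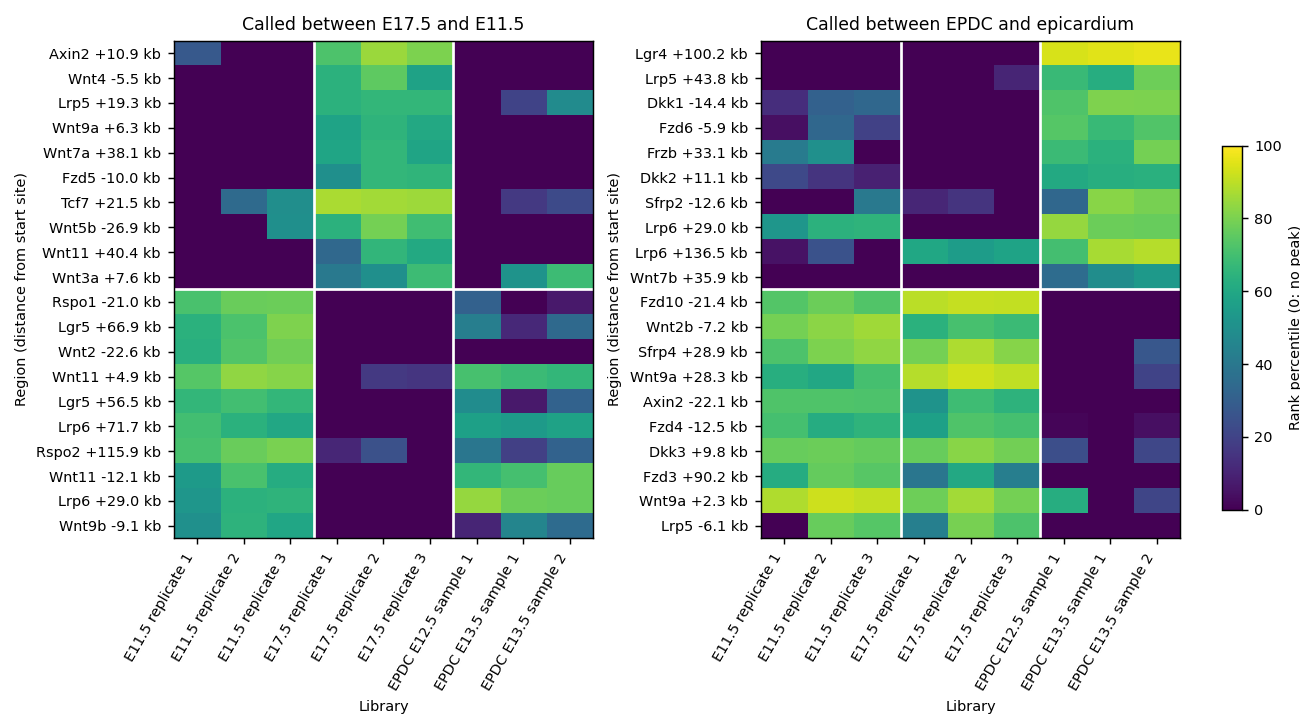
Rank percentile of the regions of largest difference in each of the 9 libraries (columns), for E17.5 against E11.5 (left) and EPDCs against epicardium (right). Rows above the horizontal white line were called higher and those under it lower, and dark cells had no peak. E17.5 libraries are dark in the lower left rows, except for *Wnt11* +4.9 kb and *Rspo2* +115.9 kb with values up to 24.9.

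*Wnt11*, which encodes a ligand mostly known from beta-catenin-independent signalling and heart development, had the most called regions of any member together with *Lrp6*, at 11 of 24 regions for *Wnt11* and 11 of 35 for *Lrp6*. This is 45.8% and 31.4%, beside 27.4% of all regions called in either direction, and *Lgr5* had a larger share, with 9 of 14. At *Wnt11*, 5 were higher and 6 lower at E17.5, side by side. Distances at this gene are from the nearer of its 2 start sites. An intron 4.9 kb from the start site (chr7:98843524-98844024) stood at 73.8, 83.3 and 82.0 at E11.5, at 0, 16.6 and 15.6 at E17.5, and at 71.0, 68.1 and 66.2 in EPDCs. The E17.5 libraries were the low ones and did not overlap the rest (difference between stages -69.0 points, SE 5.49, limma adjusted p = 5.67e-05). A region 12.1 kb upstream (chr7:98822812-98823312) had no peak in any E17.5 library and stood at 54.4, 71.4 and 62.0 at E11.5 (difference -62.6 points). A region 28.7 kb downstream of the start site went from a mean of 88.0 to 43.8 (difference -44.2 points), and the strongest region of the locus, 12.6 kb from the start, from 97.2 to 87.9 (difference -9.24 points). In the other direction, regions 33.4 kb and 40.4 kb from the start had no E11.5 peak and were 39.1 and 53.5 points higher. The promoter region itself was not called (82.3 ± 3.36 and 77.9 ± 4.50, SD, n = 3), and a neighbouring region 0.1 kb upstream was 14.9 points higher at E17.5 (limma adjusted p = 0.0316).

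**Figure D4:**
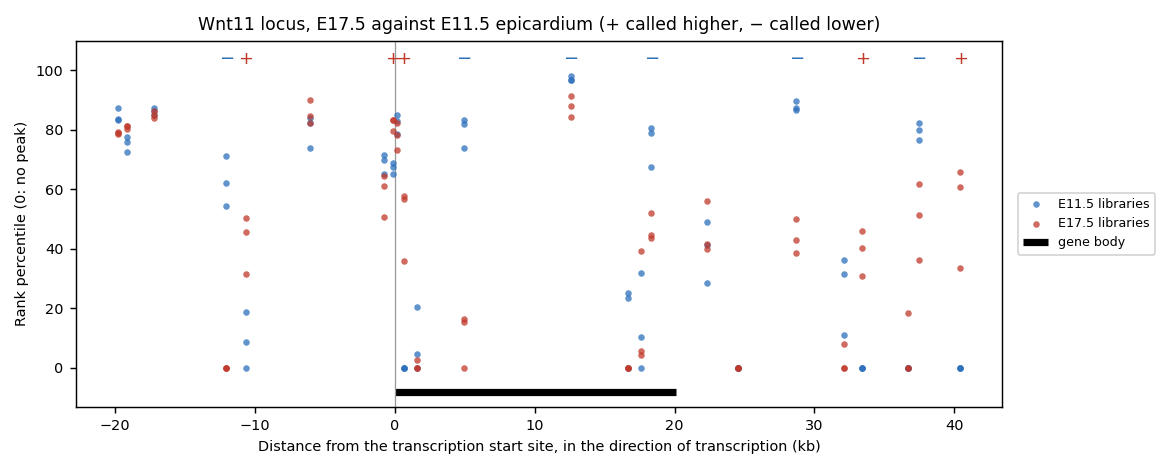
Rank percentile of the 24 regions assigned to *Wnt11* against their distance in kb from the nearer of its 2 start sites. Each point is 1 library (E11.5 blue, E17.5 red). The gene body is a black bar drawn as if from a single start site, and called regions are marked + (higher at E17.5) or − (lower). The 5 gains and 6 losses are interspersed along the locus. A gain lies next to a start site, while the promoter region of highest mean was not called.

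The second comparison sets EPDCs against the epicardium, with the mean of both epicardial stages as the reference since the EPDC stages lie between them. At promoters 5 member genes were higher in EPDCs (*Wnt1*, *Wnt6*, *Sfrp2*, *Dkk2* and *Lgr5*) and 2 were lower (*Wnt10a* and *Wnt10b*), while 40 did not pass the test. That is 10.6% and 4.26%, against 8.72% higher and 12.2% lower among promoters of all genes picked in the same way. Over all 101 member promoter regions, 9.9% were higher and 5.94% lower, against 8.39% and 13.0% of all promoter regions. Set against E11.5 epicardium alone, a comparison added after the data were seen, only the *Wnt6* promoter remained called of these 7. Set against E17.5 alone, also added after the data were seen, all 7 were called, with differences from -32.4 points for *Wnt10a* to 41.9 for *Wnt6*. *Wnt10a* had peaks on the epicardial side only, so its difference is a description.

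*Wnt6*, a ligand gene, stood at 17.47, 24.8 and 24.4 at E11.5, at 2.29, 18.5 and 7.68 at E17.5, and at 49.3, 52.1 and 53.0 in EPDCs. The EPDC libraries lay above every epicardial library. The difference was 35.6 points (SE 4.89, limma adjusted p = 0.000737), and 29.2 points against E11.5 alone (limma adjusted p = 0.00509). Its neighbour *Wnt10a*, whose promoter region lies 20.5 kb away, had no EPDC peak (difference -17.6 points, a call lost in 10 of 18 alternatives). The intronic region 1.4 kb inside *Wnt6*, also printed, had a mean of 95.97 over all libraries.

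*Sfrp2* stood at 90.7, 91.4 and 94.2 in EPDCs, 8.48 points over the epicardial mean (SE 1.28, limma adjusted p = 0.00131) and 1.70 over E11.5 (limma adjusted p = 0.421). *Dkk2* stood at 63.0, 57.8 and 55.6 in EPDCs, 19.03 points over the epicardial mean (SE 5.37, limma adjusted p = 0.0267, lost in 8 of 18 alternatives) and 2.00 over E11.5 (limma adjusted p = 0.889). *Lgr5* was 5.25 points over the epicardial mean (SE 1.501, limma adjusted p = 0.0284, lost or reversed in 6 of 18 alternatives) and -2.41 points from E11.5 (limma adjusted p = 0.354). *Wnt10b* stood at 66.9, 64.7 and 61.7 in EPDCs, a difference of -11.4 points from the epicardial mean (SE 2.06, limma adjusted p = 0.00312) and of -3.43 from E11.5 (limma adjusted p = 0.347). Ranked by fold enrichment this call was lost as well (limma adjusted p = 0.968). *Wnt1* was 12.7 points higher (SE 3.97, limma adjusted p = 0.0412), a call lost in 8 of 18 alternatives. The promoters of *Sfrp5*, *Dkk1* and *Wnt9b*, called between the stages, did not pass the test in EPDCs (differences of 10.1, 13.3 and -0.16 points).

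Of the 666 member regions, 70 were higher and 123 lower in EPDCs, or 10.5% and 18.5%, against 13.9% higher and 17.3% lower among all regions, with a median difference of -2.28 points against -1.70. With equal numbers of top summits the calls were 94 higher and 109 lower of 539, with 20.2% higher and 20.1% lower among all regions. Against E11.5 alone they were 38 higher and 109 lower, with 8.23% higher and 18.1% lower among all regions. Near secreted antagonists 22 of 91 regions were higher and 7 lower, which became 12 and 9 against E11.5 alone. Near ligands 26 of 268 were higher and 58 lower, near receptors 17 of 161 and 28, near R-spondin and Lgr genes 4 of 73 and 13, and near effectors 1 of 73 and 17. Effector regions counted 0 higher and 16 lower against E11.5 alone, and ligand regions 13 and 40. Against E17.5 alone, also added after the data were seen, 92 member regions were higher and 104 lower, with 16.2% higher and 13.1% lower among all regions. There R-spondin and Lgr regions turned to 11 higher and 7 lower and receptor regions to 20 and 19, while antagonist regions counted 25 and 7, ligand regions 34 and 54 and effector regions 2 and 17. Against E11.5 alone the R-spondin and Lgr regions counted 3 and 17 and the receptor regions 10 and 27. The counts of 3 genes are given after their values were seen. *Axin2*, the target gene often read as a measure of canonical signalling, had 8 lower regions and 1 higher among 18, and *Rspo1* 7 lower and 0 higher among 19. *Frzb* had 6 higher and 0 lower among 13.

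Regions called higher in EPDCs made up 24.2% of those near antagonists and 10.6% of those near receptors, beside the 13.9% of all regions. An *Lrp5* intron 43.8 kb from the start site (chr19:3642484-3642984), printed above, had 1 weak epicardial peak, at 10.36 in E17.5 replicate 3, and stood at 67.6, 62.4 and 77.8 in EPDCs. Its EPDC summits carried 88, 101 and 319 fragments. The difference was 67.5 points (SE 4.96, limma adjusted p = 2.93e-05). A region 14.4 kb upstream of *Dkk1* (chr19:30563776-30564276) stood at 13.0, 31.2 and 33.6 at E11.5, at 0 at E17.5 and at 72.4, 80.7 and 80.4 in EPDCs (64.8 points higher, SE 5.52, limma adjusted p = 6.82e-05). A *Dkk2* intron (chr3:132096191-132096691) stood at 22.3, 14.96 and 9.32 at E11.5, at 0 at E17.5 and at 60.7, 62.6 and 63.6 in EPDCs (54.5 points higher, SE 4.31, limma adjusted p = 4.28e-05).

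The region upstream of *Fzd6* (chr15:38999864-39000364) showed the same order, with EPDC values of 73.8, 67.5 and 72.9, E11.5 values up to 33.5 and no E17.5 peak (61.9 points). A *Frzb* intron (chr2:80414292-80414792) stood at 68.0, 63.9 and 79.0 in EPDCs and had peaks in 2 of 6 epicardial libraries (55.0 points). A region 12.6 kb upstream of *Sfrp2* (chr3:83753485-83753985) stood at 33.3 in the E12.5 EPDC library and at 82.0 and 79.4 in the E13.5 ones (53.8 points), a call that was lost without either E13.5 library (45.3 points without sample 1 and 46.6 without sample 2). A *Wnt7b* intron (chr15:85541966-85542466) had no epicardial peak and stood at 35.4, 49.2 and 54.0 in EPDCs (46.2 points). Against E11.5 alone the *Dkk1*, *Dkk2*, *Fzd6*, *Frzb* and *Sfrp2* regions remained called. The *Lrp5* and *Wnt7b* regions had no E11.5 peak and had to differ there, so that comparison does not test them.

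The region of largest difference, assigned to *Lgr4* at 100.2 kb from its start, lies at the promoter and in an exon of another gene, *Ccdc34* (chr2:110017584-110018084). It stood at 93.9, 95.5 and 96.5 in EPDCs and had no peak in any of the 6 epicardial libraries. It was 1 of 377 regions in the whole dataset at 90 or more in every EPDC library with no peak in any epicardial library, while 0 regions were at 90 or more in every epicardial library with no EPDC peak. The processing of the EPDC and epicardial lists cannot be told apart from the cell population here, and the *Lgr4* promoter itself did not pass the test.

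The largest negative difference in EPDCs was at the intergenic region 21.4 kb upstream of *Fzd10* (chr5:128579235-128579735), printed above with its AP-1 and T-box letters. It stood at 73.1, 77.5 and 72.7 at E11.5, compared with 89.5, 91.3 and 90.9 at E17.5, and no EPDC library had a peak there. The epicardial summits carried 56, 68 and 51 fragments at the earlier stage, and 112, 197 and 188 at the later. The difference was -82.5 points. A region 7.2 kb upstream of *Wnt2b* (chr3:104968905-104969405), a ligand gene whose own promoter did not pass the test in EPDCs, stood at 79.1, 82.7 and 85.6 at E11.5, at 63.7, 70.7 and 68.0 at E17.5, and at 0 in all EPDC libraries (difference -75.0 points).

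Other regions open in the epicardium and without a peak in all EPDC libraries lay upstream of *Axin2* (chr11:108897983-108898483, -67.0 points), near *Fzd3* (chr14:65172059-65172559, -59.2 points) and upstream of *Lrp5* (chr19:3692399-3692899, -57.6 points). The last had no peak in E11.5 replicate 1 either, and its call was lost in 8 of 18 alternatives. The region near *Sfrp4* (chr13:19653398-19653898) lies in an intron of *Nme8* and that near *Fzd4* (chr7:89391590-89392090) in an intron of *Tmem135*. They had weak peaks in 1 and 2 EPDC libraries, at up to 27.2 and 4.19, and differed by -71.7 and -64.3 points. Near *Wnt9a*, an intergenic region (chr11:59334935-59335435) stood at 62.6, 60.03 and 70.6 at E11.5, at 88.8, 92.7 and 90.4 at E17.5 and at 0, 0 and 20.1 in EPDCs (difference -70.8 points, SE 5.31, limma adjusted p = 3.77e-05). A second *Wnt9a* region, 2.3 kb inside the gene (chr11:59308980-59309480), differed by -57.9 points, with EPDC values of 62.1, 0 and 21.1 that were uneven among libraries. A *Dkk3* intron (chr7:112149005-112149505) differed by -63.0 points.

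*Lrp6*, the Wnt co-receptor gene, had 14 called regions of 35 in EPDCs, 5 higher and 9 lower, more than any other member, but it also had the most regions. Over all regions, 31.2% were called in either direction, and 13.9% were called higher. Its promoter was at 87.7, 91.4 and 91.3 in EPDCs and was not called. The intron at 29.0 kb, without a peak at E17.5, was 49.2 points higher in EPDCs than the epicardial mean (SE 4.34, limma adjusted p = 7.41e-05) and 18.9 points higher than E11.5 (limma adjusted p = 0.0221). A region 136.5 kb from the start, in an intron of the neighbouring gene *Bcl2l14* (chr6:134430131-134430631), stood at 5.04, 25.1 and 0.35 at E11.5, at 59.7, 55.3 and 58.1 at E17.5 and at 70.1, 86.8 and 89.1 in EPDCs (48.1 points higher, SE 6.59, limma adjusted p = 0.000799). In the other direction, a region 40.5 kb from the start went from means of 72.0 and 67.0 at E11.5 and E17.5 to 23.4 in EPDCs (difference -46.1 points).

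**Figure D5:**
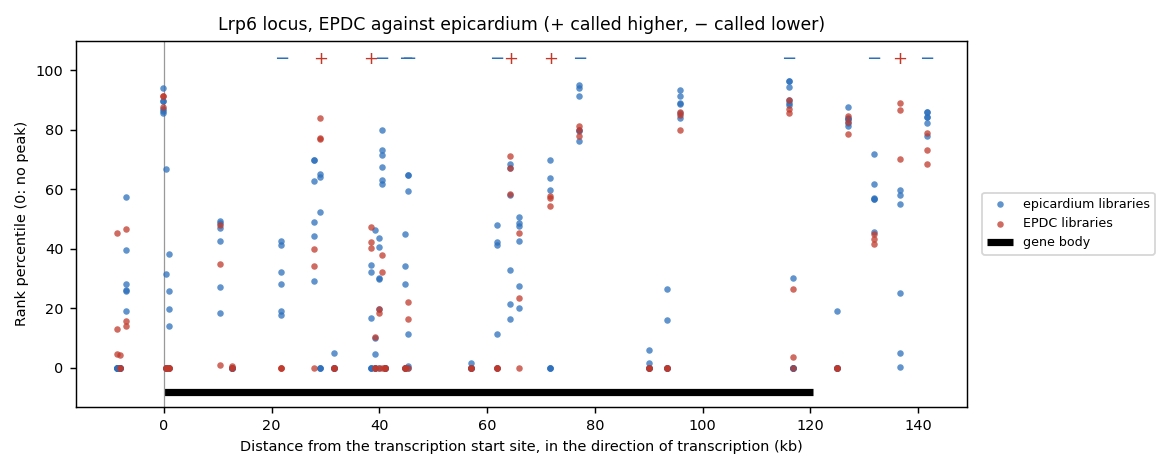
Rank percentile of the 35 regions assigned to *Lrp6* against their distance from its start site in kb, each point 1 library (epicardium blue, EPDCs red), with the gene body as a black bar and called regions marked + (higher in EPDCs) or − (lower). The 5 gains and 9 losses lie inside and downstream of the gene, while the promoter points at distance 0 overlap.

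As a share of all summits, those near member genes were 0.402%, 0.392% and 0.384% at E11.5, 0.433%, 0.420% and 0.429% at E17.5, and 0.376%, 0.369% and 0.355% in EPDCs. The stages did not overlap, with means of 0.393 ± 0.0088% and 0.427 ± 0.0068% (SD, n = 3). The two-sided exact permutation test gave p = 0.10, the smallest that its 20 assignments allow. EPDCs lay at 0.367 ± 0.0105% (SD, n = 3) and the 6 epicardial libraries at 0.410 ± 0.0201% (SD, n = 6; exact permutation p = 0.0238 over 84 assignments). Without EPDC E13.5 sample 2 the difference went from -0.0436 to -0.0378 percentage points with an exact permutation p of 0.0714.

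The letters of the motifs were counted over whole regions, as a description. The TCF/LEF letters were present in 13.7% of member regions and 16.9% of all regions. They were in 11.9% and 11.8% of the member regions called higher and lower at E17.5, beside 16.6% and 17.7% of all regions so called. In EPDCs they were in 14.3% of the member regions called higher and 20.3% of those called lower, beside 16.5% and 17.4% over the dataset. AP-1 letters were in 18.8% of member regions and 22.8% of all. They were in 32.8% of the 67 member regions called higher at E17.5 and in 37.8% of all regions so called, and in 30.1% of the 123 member regions called lower in EPDCs and 34.4% of all regions so called. In member regions called higher in EPDCs the share was 11.4%, beside 17.1% over the dataset. TEAD letters were in 31.8% of member regions and 33.1% of all regions. They were in 37.8% of the member regions lower at E17.5 and 37.3% of all such regions, and in 44.7% of those lower in EPDCs beside 39.5%. GATA letters were in 22.2% of member regions and 29.8% of all regions, and T-box letters in 1.35% and 1.97%.

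Other genes of the Wnt pathway, 45 in number and listed by function (secretion and co-receptors, membrane modulators, transducers and planar polarity), gave 965 further regions. At E17.5, 62 were higher and 171 lower, or 6.42% and 17.7% beside 7.25% and 20.1% of all regions, with a median of -1.19 points. In EPDCs 143 were higher and 168 lower, or 14.8% and 17.4% beside 13.9% and 17.3%, with a median of -1.55. Of their 43 promoters, 3 were higher and 7 lower at E17.5, or 6.98% and 16.3% beside 3.51% and 13.1% of the promoters of all genes. In EPDCs 4 were higher and 4 lower, or 9.3% each way beside 8.72% and 12.2%. *Kremen2*, for a receptor of Dkk proteins, had the largest promoter difference between stages, with means of 67.3 at E11.5, 18.1 at E17.5 and 36.3 in EPDCs (difference -49.1 points, limma adjusted p = 0.00162), while *Kremen1* went from 93.5 to 97.9. *Ptk7*, for a Wnt co-receptor, was at 94.1, 80.5 and 95.3 (difference between stages -13.6 points), and *Wls*, needed for Wnt secretion, went from 85.5 at the earlier stage to 76.3 at the later (difference -9.17 points). *Rnf43*, which removes Frizzled receptors from the membrane, was at 90.1, 94.5 and 75.1 (EPDC difference -17.2 points, limma adjusted p = 0.00322).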

How the data were processed

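Bulk ATAC-seq of sorted cells was deposited as 1 MACS2 (2.2.9.1) narrowPeak list per library on mm10, made by the authors with nf-core/atacseq. The 10 samples gave 9 lists, since technical replicates of 1 EPDC sample were merged by the authors and counted once. The deposited −log10 p-value of each summit was the main score. The deposited fold enrichment, a ratio over background, and the deposited −log10 q-value served as alternatives and to recover fragments at summits.

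Summits (1071660 on chromosomes 1 to 19, X and Y) were merged into 184764 regions of 501 bp, and each region took the rank percentile of its strongest summit in each library (0 for none). limma 3.58.1 (R 4.3.3; trended, robust) was fitted to all regions and 9 libraries, since the values are not counts, with Benjamini-Hochberg adjustment at 0.05. Shares of summits were compared by two-sided exact permutation tests. The script was tested on simulated data. Other steps used Python 3.11.15, numpy 2.4.6, pandas 2.3.3 and scipy 1.17.1. Peak lists hold only what passed the caller, so depth (94909 to 142743 summits per library) limits weak regions.

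Every member's promoter was accounted for by its region of highest mean. Per comparison and direction, called regions were named by size of difference, up to 10 and at most 2 per gene. A sequence was printed for the region of largest difference in each direction and the one of highest mean. Regions at another gene's start site (*Ccdc34*, *Ppp6r3*, *1810055G02Rik* and *Gnl2*) were then passed over, and the *Sfrp5* promoter was added, after the values were seen, as were the motif letters. Promoter bases of *Sfrp5* came from RefSeq (33 of 49 members matched). The members and gene lists were chosen with earlier results of these data known. Alternatives were other rankings, scalings, thresholds, windows of 10 and 50 kb, chromosomes, single libraries left out and a replicate block. EPDCs against E11.5 or E17.5 alone was added after seeing the data.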

Additional observations from a re-analysis of the deposited data

Results flagged for a closer look

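The EPDC lists held 217 intervals on the mitochondrial genome and unplaced scaffolds, 14 of them mitochondrial, where the epicardial lists held 0. These intervals lie outside the chromosomes used in every comparison. No member gene lies on them.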

How the results depend on the processing

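Of 1152 values for 64 named promoters and regions under the alternatives, 1063 kept direction and call, 88 lost the call and 1 reversed, and 45 of the 64 never lost it. The regions away from promoters were named for their large differences. Those with peaks on only 1 side of their comparison had to differ and are counted here, so the totals are no measure of stability for them. The reversal was the *Lgr5* promoter in EPDCs, at -2.41 points against E11.5 alone, a setting added after seeing the data, under which regions higher in EPDCs also fell to 38. With a log2 score scaled to the library sum and centred on shared regions, 119 regions were higher and 120 lower at E17.5, while over all regions 15.0% were higher and 18.7% lower. Regions lower in EPDCs numbered 81 of 487 with a 10 kb window, where fewer regions were counted. For the others the cause was not tested.

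With 1 library left out, regions higher at E17.5 numbered 47 to 73, lower at E17.5 103 to 132, higher in EPDCs 57 to 96 and lower in EPDCs 82 to 143. Over all regions the same settings gave 6.05% to 9.01% higher and 16.3% to 21.6% lower at E17.5. For EPDCs they gave 11.2% to 18.2% higher and 11.9% to 19.5% lower. The share of summits near members differed by 0.0301 to 0.039 percentage points between stages and by -0.0487 to -0.0378 between EPDCs and epicardium. Equal replicate numbers did not pair the libraries (correlations of deviations 0.019, 0.032 and -0.028). With the replicate block, on epicardial libraries only, 64 regions were higher and 130 lower, against 64 and 129 without it, and the share differed by 0.0344 points (exact permutation p = 0.25, the smallest that the 8 sign assignments of 3 pairs allow, so that this test could not pass).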

Other observations

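Among the 666 regions near member genes, 190 had a peak in all 9 libraries, or 28.53% beside 25.74% of all regions. A peak in every E11.5 and no E17.5 library was seen at 59, or 8.86% beside 10.7% of all regions, and the opposite at 33, or 4.95% beside 4.38%. A peak in every epicardial and no EPDC library was seen at 17, or 2.55% beside 2.15% of all regions, and the opposite at 11, or 1.65% beside 3.2%. The order of the last pair is the reverse of that over all regions, a difference that was not tested.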
